A study of Mus musculus with 4 samples.

Results

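G2/M is the stretch of the cell cycle in which a cell that has copied its DNA prepares for and passes through mitosis, and G2/M-phase spermatogonia is the working name for germ cells picked here by their RNA from single-cell profiles of cultured mouse spermatogonia. A cell barcode counted as one when it had over 400 and under 4000 detected genes and under 10% mitochondrial UMIs (unique molecular identifiers, 1 per captured RNA molecule). It also needed at least 2 UMIs of the germ cell genes Dazl, Tex15, Stk31 and Epcam together, more than of the fibroblast genes Col1a1, Col1a2, Sparc and Dcn, and no UMI of Stra8 or Kit, genes of differentiating spermatogonia. Among such cells, those with at least 3 UMIs of Ube2c, Cdc20, Ccnb1, Cenpa, Hmmr and Aurka together were the G2/M spermatogonia. The rule found 1743 of 24278 barcodes, namely 836 of vehicle 1, 897 of vehicle 2 and 10 of EV 1. The germ cells that met all other conditions but had 2 or fewer UMIs of the 6 genes are called other germ cells below (the G2/M spermatogonia are the members named in the plots), and they numbered 2458, 2609 and 198.

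Testes of 3 male mice at postnatal day 6 gave the Thy1+ cells, which were sorted with magnetic beads and cultured on STO cells, a mouse embryonic fibroblast line used as a feeder layer. They received GDNF and FGF in the medium in both arms. The vehicle arm (vehicle 1 and vehicle 2) received PBS, and the EV arm (EV 1 and EV 2) received extracellular vesicles (EVs) that had been isolated from postnatal day 7 testis, added at 1 μg/mL and left for 3 days. Cell clumps were digested to single cells. Nothing in the labels ties a library to single animals, and for EV 2 a list of 6794 barcodes was read while its expression was not analysed here.

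A dividing cell orders its gene expression along the cycle. Genes for DNA synthesis and histones are used in S phase, and a later wave of genes, driven in large part by the MuvB, B-Myb and FoxM1 regulators acting on promoters with a CHR element, supplies the cyclins, kinases, spindle motors and kinetochore proteins of mitosis. In the neonatal testis undifferentiated spermatogonia divide both to renew the stem cell pool and to amplify progenitors, and in culture GDNF sustains these divisions.

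EV 1 stood apart from the vehicle libraries before any comparison. It held 242 germ cells by the rule above, Stra8 or Kit cells included, against 4854 and 5264, and the median depth of its other germ cells was 1249.5 UMIs against 1737.5 and 1858.0. Total UMIs were 23686047, 27444797 and 10793232 over 9291, 9738 and 5249 barcodes, and at most 22 barcodes were shared by a pair of libraries. Metallothionein and stress genes summed to 11707.9 CPM (counts scaled to a total of 1000000 UMIs) in its fibroblasts, the cells with more fibroblast than germ UMIs, against 3504.2 and 3360.5 CPM. With 1 EV library and with cells chosen by the genes compared, no test was made anywhere, no p-value is given, and all intervals are 95% intervals that cover counting error only. UMIs were summed over the cells of a class and library, and a ratio is of CPM.

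The share of G2/M spermatogonia among germ cells without Stra8 or Kit was almost the same in the vehicle libraries and lower in the EV library. It was 25.4% in vehicle 1 (836 of 3294 cells, Wilson interval 23.9 to 26.9%), 25.6% in vehicle 2 (897 of 3506, 24.2 to 27.1%) and 4.81% in EV 1 (10 of 208, 2.63 to 8.62%). The difference of EV 1 from the vehicle mean was -20.7 percentage points, while the vehicle libraries had an SD of 0.145 points. Because a shallow cell reaches 3 UMIs less often, each cell was also cut down at random to 1000 UMIs (thinned). Cells below that depth were left out. The germ, fibroblast, Stra8 and Kit conditions were applied again to the thinned counts. This left 2776, 3023 and 133 germ cells without a Stra8 or Kit UMI. A cell that lost its only Stra8 or Kit UMIs in thinning counted among them. At equal depth the shares were 9.47% (8.44 to 10.6%), 8.47% (7.53 to 9.51%) and 2.26% (3 cells, 0.77 to 6.42%). Thinned to 2000 UMIs they were 35.4%, 31.9% and 10.5%, but the last rested on 2 of 19 cells (2.94 to 31.4%). EV 1 therefore lay below both vehicle libraries at each depth, with the interval at 2000 UMIs reaching into that of vehicle 2 (29.9 to 34.0%), and an arm with 1 library has no spread of its own.

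Germ cells with a Stra8 or Kit UMI passed the same threshold more often, in 40.8%, 42.5% and 23.5% of cells (8 of 34 in EV 1). Thinned to 1000 UMIs, with 644, 714 and 21 cells still holding a Stra8 or Kit UMI, these shares were 12.3%, 12.0% and 9.52%. Their intervals overlap those of the cells without Stra8 or Kit in vehicle 1 (9.95 to 15.0%) and lie above them in vehicle 2 (9.86 to 14.6%). Fibroblasts, the other large class of cells, passed it in 3.26%, 4.12% and 0.416% of cells at a median depth of 3646.0, 3955.0 and 2453.5 UMIs. At 1000 UMIs their shares were 0.206%, 0.51% and 0.0685%, so that the germ cell shares stood well above this level in every library.

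**Figure D1:**
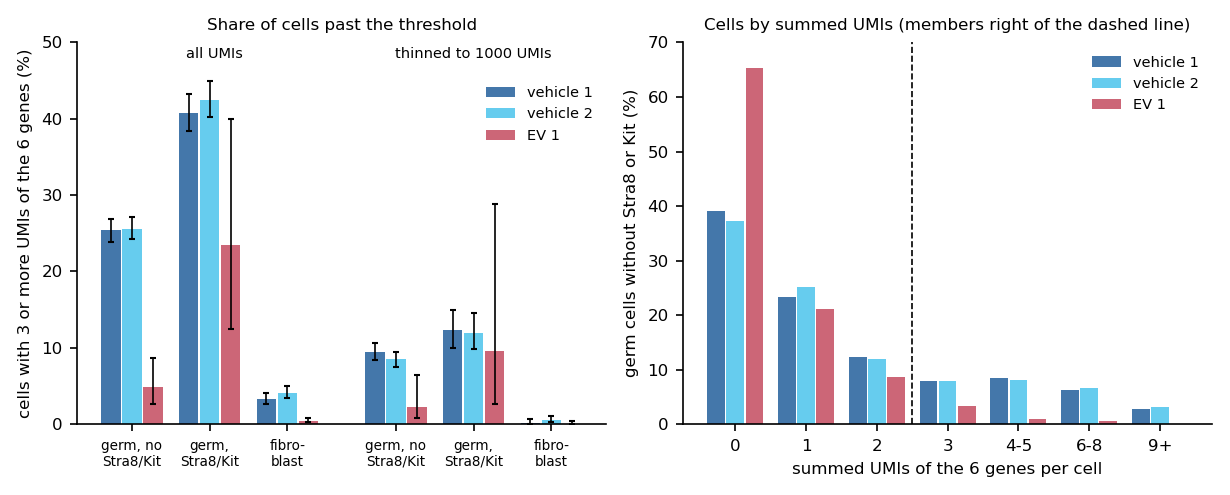
Left, percent of cells with 3 or more UMIs of the 6 genes in germ cells without and with a Stra8 or Kit UMI and in fibroblasts, with all UMIs and after thinning to 1000 UMIs (bars per library, lines are 95% Wilson intervals). Right, percent of germ cells without Stra8 or Kit by their summed UMIs of the 6 genes; 65.4% of them had none in EV 1 against 39.0% and 37.2% in the vehicle libraries.

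Most G2/M spermatogonia sat near the threshold. The summed UMIs of the 6 genes had a median of 4, 5 and 3 and a maximum of 17, 17 and 7. Just inside, 261, 274 and 7 cells had exactly 3 UMIs, and just outside, 406, 422 and 18 other germ cells had 2. In the vehicle libraries 312 (37.3%) and 324 (36.1%) cells carried 3 different genes of the 6, and 25 and 29 cells carried all 6. Single-gene cells were few, at 23 and 17. The choice thus rested on several genes in most cells, and on 2 or 3 genes in 9 of the 10 EV cells.

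G2/M spermatogonia also held more RNA. Their median was 2528.5 UMIs in vehicle 1, 2734.0 in vehicle 2 and 1885.0 in EV 1, which was 1.46, 1.47 and 1.51 times that of the other germ cells. Genes detected per cell had a median of 1542.5, 1652.0 and 1292.5, against 1148.5, 1234.0 and 874.0. A threshold in UMIs favours deeper cells, so that a cell's size and the sampling behind the rule cannot be told apart here. Doublet scores marked 81 (9.69%), 81 (9.03%) and none of them, against 195 (7.93%), 225 (8.62%) and 14 (7.07%) of the other germ cells.

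The 6 genes that chose the cells cover the path from mitotic entry to exit. Ccnb1 encodes cyclin B1, the partner of Cdk1 at mitotic entry. Aurka is a spindle kinase and Hmmr a spindle-associated protein. Cenpa is the histone variant that marks centromeres. Cdc20 activates the anaphase-promoting complex and Ube2c is the ubiquitin-conjugating enzyme that works with it. Their levels are a description, since the rule used them.

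Ube2c (ENSMUSG00000001403) was at 461.9, 400.2 and 426.0 CPM in G2/M spermatogonia, in the order vehicle 1, vehicle 2, EV 1, and at 66.7, 60.5 and 63.6 CPM in other germ cells. Cenpa was at 518.8, 524.4 and 331.3 CPM against 104.4, 116.8 and 86.1 CPM. Ccnb1 was at 357.4, 341.8 and 378.6 CPM against 68.5, 64.4 and 59.9 CPM. In each of these genes the 2 classes were far apart in every library and the vehicle libraries lay close together. Cdc20 was at 254.3, 232.8 and 284.0 CPM against 50.2, 40.0 and 26.2 CPM, and Hmmr at 229.8, 232.8 and 378.6 CPM against 38.4, 35.4 and 37.4 CPM. Aurka was at 123.6 and 121.0 CPM against 18.2 and 16.8 CPM in the vehicle libraries. It had no UMI in the 10 EV cells, where 3 UMIs, the limit that a count of 0 allows, would be 142.0 CPM.

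To read each gene in cells that it had not chosen, the rule was repeated with the other 5 genes. Ube2c was then 3.42-fold (3.06 to 3.81) and 3.64-fold (3.27 to 4.07) higher in the chosen cells of vehicle 1 and vehicle 2. Aurka was 3.85-fold (3.09 to 4.81) and 3.89-fold (3.16 to 4.81) higher. Cenpa gave the smallest ratios, 2.55 (2.31 to 2.81) and 2.35 (2.15 to 2.57), and Cdc20, Ccnb1 and Hmmr lay between 2.66 and 3.60. Each gene was thus higher in cells picked without it in both vehicle libraries. In EV 1 the other 5 genes picked 6 to 10 cells, too few to tell: the ratio of Hmmr was 3.55 with an interval of 0.66 to 12.6, and that of Ccnb1 0.894 (0.0217 to 5.51).

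**Figure D2:**
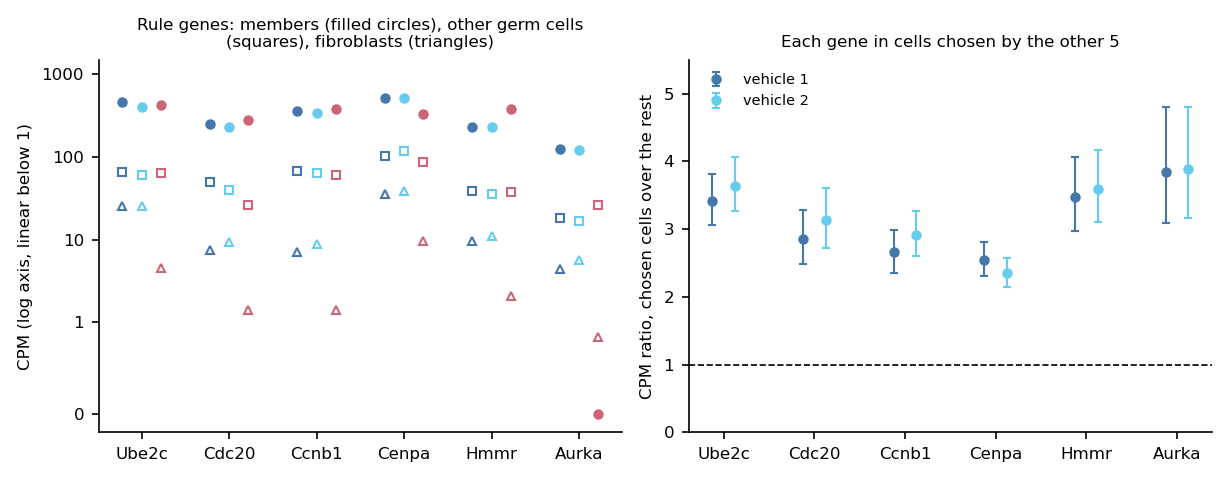
Left, CPM of the 6 rule genes (log axis, linear below 1) in G2/M spermatogonia (filled circles), other germ cells (squares) and fibroblasts (triangles) of vehicle 1 (dark blue), vehicle 2 (light blue) and EV 1 (red). Right, the CPM ratio of each gene between germ cells chosen by the other 5 genes and the rest in the vehicle libraries, with 95% counting intervals; all 12 points lie above 1.

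The promoters of these genes share short elements. RefSeq windows from 250 bases before to 50 bases after the start site (GRCm38.p6) were searched for the letters of the CHR, TTTGAA or TTCGAA, and for CCAAT, on both strands, with overlaps allowed. CHR letters were in 5 of the 6 rule genes, all but Ccnb1, and CCAAT letters at 2 or more places in all 6. Below, 150 bases around the start, 120 before it and 30 from it onward, are printed on the gene's strand for those with matches near the start and for Ccnb1, with Cenpf, the gene outside the rule most abundant by UMIs in the kinetochore list, and capitals mark CHR and CCAAT letters.
Ube2c, chr2:164769809-164769958, plus strand: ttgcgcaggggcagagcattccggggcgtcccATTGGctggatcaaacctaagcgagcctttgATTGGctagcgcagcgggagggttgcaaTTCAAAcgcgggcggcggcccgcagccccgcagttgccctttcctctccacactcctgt
Cdc20, chr4:118437314-118437463, minus strand: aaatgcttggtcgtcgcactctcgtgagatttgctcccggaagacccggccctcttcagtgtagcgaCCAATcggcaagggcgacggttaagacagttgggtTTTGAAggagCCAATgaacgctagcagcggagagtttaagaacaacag
Cenpa, chr5:30666766-30666915, plus strand: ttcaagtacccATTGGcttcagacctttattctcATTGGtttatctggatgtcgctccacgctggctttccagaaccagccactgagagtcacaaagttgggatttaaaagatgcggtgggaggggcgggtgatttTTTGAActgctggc
Hmmr, chr11:40733408-40733557, minus strand: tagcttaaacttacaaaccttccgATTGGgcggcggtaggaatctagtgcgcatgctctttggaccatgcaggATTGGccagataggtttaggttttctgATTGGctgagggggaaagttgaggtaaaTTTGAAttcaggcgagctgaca
Ccnb1, chr13:100786457-100786606, minus strand: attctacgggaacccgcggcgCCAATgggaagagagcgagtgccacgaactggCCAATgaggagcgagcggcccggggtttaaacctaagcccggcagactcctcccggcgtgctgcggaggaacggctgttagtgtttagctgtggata
Cenpf, chr1:189688057-189688206, minus strand: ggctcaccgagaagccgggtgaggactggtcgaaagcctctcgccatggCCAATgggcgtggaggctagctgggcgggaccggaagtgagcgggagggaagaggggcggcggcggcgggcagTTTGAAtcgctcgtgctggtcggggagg

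The CHR letters began at base -29 of Ube2c, -18 of Cdc20, 17 of Cenpa, 9 of Hmmr and 3 of Cenpf, counted from the start site as base 1. In Aurka they began at base 33, past the printed stretch. Over all 27025 genes with a window, 21.7% held CHR letters and 41.1% CCAAT letters, and among the 8292 genes with a window that were tested below the shares were 16.0% and 43.9%. A match is a run of letters and no evidence of binding.

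Genes outside the rule separated the classes in the same direction. Over 10375 genes with at least 50 UMIs in both classes together in each vehicle library, 35 genes (0.337%) were at least 2-fold higher in G2/M spermatogonia in both libraries, and 4 (0.0386%) were at least 2-fold lower. The median log2 ratio of all these genes was -0.027 and -0.024, and the ratios of the vehicle libraries differed by a median of 0.17. Of the 35 genes, 28 stand on lists of mitotic genes. Another 7 do not, among them Sapcd2, Prr11 and Pimreg. CHR letters were in 19 of the 28 of the 35 genes that had a window (67.9%), and CCAAT letters in 25 (89.3%).

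**Figure D3:**
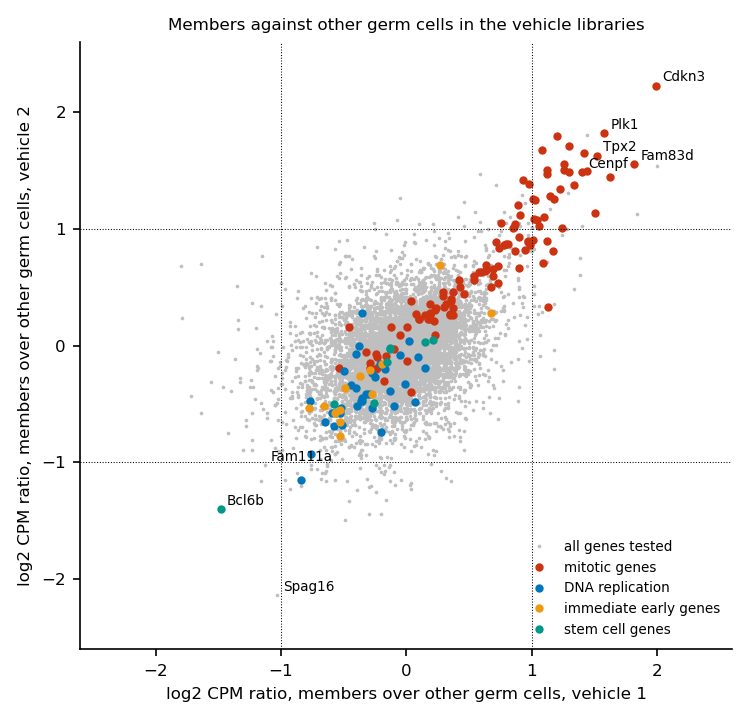
Log2 CPM ratio of G2/M spermatogonia to other germ cells for each of the tested genes outside the rule, in vehicle 1 (x axis) and vehicle 2 (y axis), with dotted lines at 2-fold. Mitotic genes (red) lie mostly to the upper right of 0 and DNA replication genes (blue) and immediate early genes (orange) mostly to the lower left, with stem cell genes in green.

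The 10 highest genes, ranked by the smaller of the vehicle ratios, were Cdkn3, Plk1, Fam83d, Sapcd2, Tpx2, Tuba1c, Prc1, Prr11, Cdc25c and Cenpf. Cdkn3, a phosphatase that acts on cyclin-dependent kinases, was at 28.9 CPM in vehicle 1 and 22 CPM in vehicle 2, against 7.24 and 4.64 CPM, which is 3.99-fold (2.59 to 6.26) and 4.75-fold (2.90 to 8.01). Plk1, the polo-like kinase of mitotic entry, was at 60.5 and 68.4 CPM against 20.2 and 19.3 CPM, 2.99-fold (2.28 to 3.95) and 3.54-fold (2.76 to 4.57). Fam83d, a spindle protein, was 3.55-fold (2.57 to 4.95) and 2.96-fold (2.20 to 4.01) higher. These are low-count genes with wide intervals. The deeper ones were tighter: Tpx2, which activates Aurora A on the spindle, was at 251.6 and 260.6 CPM against 87.8 and 83.9 CPM, 2.87-fold (2.52 to 3.27) and 3.11-fold (2.75 to 3.51). Cenpf, a kinetochore protein that builds up in G2, was at 1464.3, 1517.8 and 1325.2 CPM (EV 1 last) against 556.5, 541.1 and 396.7 CPM.

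Of 113 mitotic genes outside the rule, 111 had enough UMIs, 28 were at least 2-fold higher in both vehicle libraries, 95 were higher in both by any amount and 11 were lower in both. Over all genes tested 28.1% were higher and 36.5% lower in both. The median log2 ratio of the 111 genes was 0.69 and 0.65, and their summed level was 19716.4 and 20262.3 CPM against 12641.0 and 12424.5 CPM. Because cells of high depth pass the rule more easily, the comparison was repeated over cells with at least 2000 UMIs. It then gave 22 genes at least 2-fold higher in both vehicle libraries, 20 of them among the 35, and 3 lower. With every cell thinned to 1000 UMIs and the rule applied again it gave 26 higher, 16 of them among the 35, and 33 lower, 3 of them among the 4.

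The 22 mitotic kinases and cyclins had 7 genes past 2-fold (Ccnb2, Ccna2, Plk1, Cdc25b, Cdc25c, Cks2 and Cdkn3) and 20 higher in both libraries. Cks2, a small subunit of cyclin-dependent kinases, was at 697.9, 711.5 and 662.6 CPM against 291.0, 249.7 and 194.6 CPM. Ccnb2, the second B-type cyclin, was at 174.3, 197.2 and 94.7 CPM against 80.3, 71.1 and 56.1 CPM. In both genes the classes were apart in the vehicle libraries, and the EV value of Ccnb2 rests on 2 UMIs, with a ratio of 1.69 (0.187 to 7.25). Cks1b, the sister subunit of Cks2, was nearer, at 1.28-fold (1.13 to 1.45) and 1.30-fold (1.15 to 1.46). Ccna2, cyclin A of S phase and G2, was 2.05-fold (1.78 to 2.36) and 2.11-fold (1.85 to 2.42) higher in the vehicle libraries.

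Spindle and kinesin genes stood highest as a list, with 14 of 28 tested genes past 2-fold, 27 higher in both libraries and a median log2 ratio of 1.07 and 1.17. Kif11, the motor that pushes spindle poles apart, was at 313.0, 339.5 and 284.0 CPM against 133.6, 134.0 and 112.3 CPM. The tubulins differed among themselves. Tubb5 was 1.18-fold (1.11 to 1.25) and 1.25-fold (1.19 to 1.32) higher, Tubb4b 1.88-fold (1.76 to 2.01) and 2.18-fold (2.04 to 2.32), and Tuba1c 3.09-fold (2.47 to 3.88) and 2.74-fold (2.21 to 3.40). Kif20b, a motor of cytokinesis, was 2.01-fold (1.84 to 2.20) and 1.88-fold (1.73 to 2.04) higher.

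The 14 genes of the chromosomal passenger complex and cytokinesis were all higher in both libraries, 4 of them past 2-fold (Cdca8, Prc1, Kif20a and Kif23), with a median of 0.886 and 0.89. Prc1, which bundles the microtubules of the central spindle, was at 426.8, 431.5 and 426.0 CPM against 157.3, 152.1 and 172.2 CPM. Incenp, the scaffold of the complex, was 1.67-fold (1.53 to 1.83) and 1.79-fold (1.64 to 1.94) higher, Cdca8 (borealin) 2.09-fold and 2.05-fold, and Cep55, which acts in abscission, 1.65-fold and 1.85-fold.

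Kinetochore and checkpoint genes were mixed. Of 30 genes 21 were higher in both libraries and 8 lower, Cenpe, Cenpf, Cenpl and Sgo2a were past 2-fold, and the median was 0.294 and 0.329. Cenpe, a kinetochore motor, was 2.22-fold (2.00 to 2.48) and 2.43-fold (2.19 to 2.69) higher, and Spc25, a subunit of the microtubule-binding Ndc80 complex, 1.52-fold (1.34 to 1.72) and 1.54-fold (1.38 to 1.73). Subunits of the constitutive centromere network were split. Cenpp was at 239.2 and 266.4 CPM against 267.5 and 284.0 CPM, and Cenph at 104.5 and 94.0 CPM against 118.7 and 115.6 CPM, while Cenpw was 1.25-fold (1.08 to 1.44) and 1.28-fold (1.11 to 1.47) and Cenpn 1.22-fold (0.875 to 1.68) and 1.34-fold (1.00 to 1.79). None of the 19 chromosome structure genes passed 2-fold, though 15 were higher in both libraries. Top2a, the topoisomerase that untangles sister chromatids, was 1.75-fold (1.65 to 1.85) and 1.83-fold (1.73 to 1.93) higher, Hmgb2 1.45-fold and 1.47-fold, Mki67 1.81-fold and 2.01-fold, and H2afz 1.13-fold and 1.17-fold.

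The machinery that ends mitosis was split. Of 17 genes for the anaphase-promoting complex, separase and securin none passed 2-fold, 10 were higher and 4 lower in both libraries. Ube2s, the enzyme that extends ubiquitin chains for the complex, was at 918.4 and 902.2 CPM against 582.4 and 524.8 CPM, and Pttg1 (securin) at 153.8 and 146.2 CPM against 81.8 and 71.5 CPM. Core subunits stayed near 1, with Anapc11 at 0.842-fold (0.760 to 0.931) and 0.88-fold (0.802 to 0.965) and Anapc13 at 1.03-fold (0.908 to 1.16) and 1.17-fold (1.04 to 1.32). Of 14 listed transcription regulators, which take in the E2F family as well as MuvB, B-Myb and FoxM1, 2 were higher in both libraries, 9 lower, and none passed 2-fold in either direction. The E2F genes and their partner Tfdp1 made up 7 of the 9, and among the others Foxm1 and Lin54 were higher and Lin52 and Rbbp4 lower. Foxm1 was at 25.8 and 24.7 CPM against 16.5 and 17.2 CPM, while E2f1, an activator of S-phase genes, was at 77.8 and 78.9 CPM against 116.5 and 118.7 CPM.

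**Figure D4:**
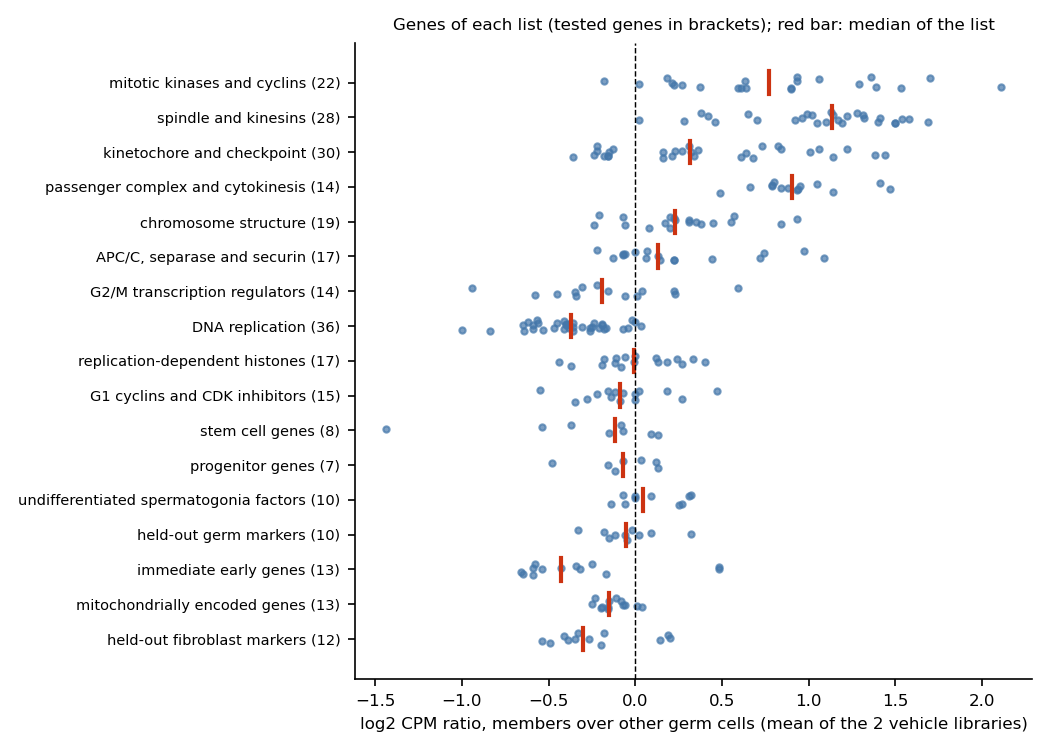
Log2 CPM ratio of G2/M spermatogonia to other germ cells, mean of the vehicle libraries, for the tested genes of each list (points; number of genes in brackets) with the list's median (red bar). The lists of spindle, cytokinesis and kinase genes lie to the right of 0 and those of DNA replication and immediate early genes to the left.

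DNA replication genes were lower. Of 36 genes 31 were lower in both vehicle libraries and 1 was higher, none passed 2-fold, and the median log2 ratio was -0.349 and -0.429. Summed, they were at 3178.0 and 3167.4 CPM against 4025.5 and 4153.7 CPM. Pcna, the sliding clamp of the replication fork, was at 104.5 and 112.9 CPM against 157.1 and 169.5 CPM. Slbp, which binds histone mRNA, was 0.739-fold (0.679 to 0.803) and 0.788-fold (0.729 to 0.850), Lig1 (DNA ligase) 0.702-fold and 0.623-fold, and Mcm3, of the replicative helicase, 0.755-fold and 0.776-fold. Rfc4, a subunit of the clamp loader, was near 1 at 1.06-fold (0.941 to 1.20) and 0.933-fold (0.831 to 1.05). Among the 4 genes at least 2-fold lower was Fam111a, which protects replication forks, at 57.8 and 60.7 CPM against 126.8 and 123.3 CPM.

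Replication-dependent histone genes did not follow. Most of their mRNAs lack a poly(A) tail. Only 17 of 36 had enough UMIs, and their median was -0.0957 and 0.129. Hist1h1b was at 181.8 and 204.9 CPM against 194.4 and 226.9 CPM. Near-identical histone genes can share reads, so that single members are uncertain.

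The summed UMIs of the 6 genes ordered these lists along a gradient. From 0 UMIs through 1, 2, 3, 4 to 5, 6 to 8 and 9 or more, mitotic genes outside the rule went from 10868.5 to 23089.5 CPM in vehicle 1 and from 10547.5 to 23253.6 CPM in vehicle 2, higher at every step. DNA replication genes were highest at 1 UMI, with 4261.8 and 4419.5 CPM, and at 2402.1 and 2620.0 CPM in cells with 9 or more. Histone genes were highest at 2 UMIs in vehicle 1, with 1217.5 CPM, and at 3 UMIs in vehicle 2, with 1147.2 CPM. They were at 784.7 and 689.4 CPM in cells with none and at 536.0 and 474.0 CPM in cells with 9 or more. The flat histone median over all G2/M spermatogonia thus combined cells just past the threshold, where histone RNA was near its peak, with cells far past it, where it was lower. The cells with exactly 3 UMIs, 31.2% and 30.5% of the class, also held DNA replication genes at 4001.1 and 3844.8 CPM, close to the 3842.0 and 3938.8 CPM of cells with none, so that these values do not show them to be past replication. Median depth also went up along the gradient, from 1603.0 to 2997.0 UMIs in vehicle 1 and from 1738.0 to 3465.0 in vehicle 2, and its part was not tested.

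**Figure D5:**
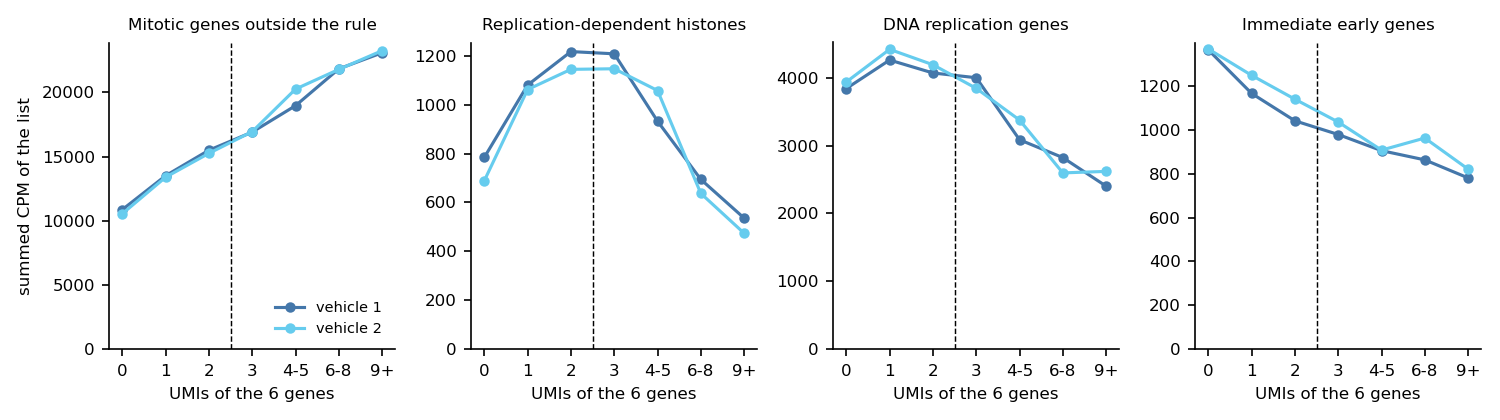
Summed CPM of 4 gene lists in germ cells without Stra8 or Kit of vehicle 1 (dark blue) and vehicle 2 (light blue), by the summed UMIs of the 6 rule genes per cell; G2/M spermatogonia lie right of the dashed line. Mitotic genes are higher at each step, histone genes peak at 2 or 3 UMIs and DNA replication genes at 1.

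Within the G2/M spermatogonia the same axis was read by setting cells with 6 or more UMIs of the 6 genes (299 and 338 cells) against those with 3 to 5 (537 and 559). Over 6688 genes none passed 2-fold in both libraries in either direction (0%). The genes at the top were Cdkn3, at 45.4 and 28.6 CPM against 17.8 and 17.1 CPM, St6gal1, Cenpe, at 423.9 and 416.7 CPM against 243.7 and 251.1 CPM, and Kifc1. Those at the bottom included 4 histone genes and 2 replication genes. Hist1h1a was at 49.8 and 66 CPM against 101.8 and 122.8 CPM, Hist1h1e at 56.5 and 54.4 CPM against 107.7 and 99.6 CPM, and Pcna at 74.2 and 80.3 CPM against 124.8 and 137.9 CPM.

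Germ cell identity was even between the classes. Held-out germ markers, which the rule did not use, summed to 669.0, 707.6 and 709.9 CPM in G2/M spermatogonia and to 687.7, 684.9 and 651.3 CPM in other germ cells, against 29.4, 26.1 and 4.59 CPM in fibroblasts. Ddx4, a germ cell RNA helicase, was at 114.7, 132.2 and 236.6 CPM in G2/M spermatogonia and at 4.11 and 3.39 CPM in fibroblasts of the vehicle libraries. The germ cell label thus held for these cells. Held-out fibroblast markers were not at 0: they summed to 1573.7, 1281.9 and 1893.1 CPM, against 2003.8, 1696.6 and 3922.5 CPM in other germ cells and 15514.3, 14752.6 and 18534.4 CPM in fibroblasts. In the vehicle libraries 9 of 12 tested fibroblast genes were lower in both, with S100a6 at 0.81-fold and 0.721-fold, and how far stray feeder RNA touched the other lists was not tested. Sertoli markers summed to 59.6, 46.8 and 0 CPM, Leydig and myoid markers to 9.78, 15.9 and 0 CPM, and macrophage and endothelial markers to 17.3, 19.7 and 142.0 CPM, the last from 3 UMIs. Amh, a defining Sertoli gene, had 1 UMI in vehicle 1 and none in the others, and the Leydig genes Insl3, Hsd3b1 and Cyp17a1 and the immune gene Ptprc had none in any library.

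Stem cell genes, which mark self-renewing spermatogonia, mostly lay near the level of the other germ cells, with Bcl6b and Lhx1 lower. Of 12 genes 8 were tested, 6 were lower and 2 higher in both vehicle libraries, and the median log2 ratio was -0.141 and -0.0825. Gfra1, the GDNF receptor, was at 213.8 and 235.5 CPM against 233.9 and 240.1 CPM, Zbtb16 at 181.4 and 171.3 CPM against 163.9 and 168.2 CPM, Etv5 at 102.2 and 114.8 CPM against 111.9 and 116.4 CPM, and Ret at 100.5 and 106.7 CPM against 111.9 and 117.5 CPM. Bcl6b, a GDNF-induced repressor needed for stem cell maintenance, was the lowest of all tested genes when ranked by the larger vehicle ratio. It was at 8.89 and 9.28 CPM, from 20 and 24 UMIs, against 25.2 and 24.9 CPM, or 0.352-fold (0.207 to 0.570) and 0.372-fold (0.230 to 0.579). Lhx1, another GDNF target, was 0.665-fold (0.516 to 0.850) and 0.704-fold (0.570 to 0.865). Bcl6b stayed lower in both vehicle libraries when the threshold was 2 or 5 UMIs, when doublets were removed, with cells of at least 2000 UMIs and with Stra8 or Kit cells kept, with log2 ratios between -0.88 and -2.10, and when thinned, with -3.49 and -1.14. With Stra8 or Kit cells kept it missed 2-fold in vehicle 1. In EV 1 it had 1 UMI in G2/M spermatogonia.

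Below Bcl6b came Sugct, Spag16, Fam111a, Cfap299, Crlf2, Npdc1, Pcca, Camk1 and E2f2. Spag16, a sperm flagellum protein, was at 12.0 and 5.80 CPM against 24.8 and 26.3 CPM, so that its size depended on the library. E2f2, an E2F factor of the S-phase program, was at 7.11 and 7.35 CPM against 14.5 and 13.9 CPM. Progenitor genes (7 of 9 tested) had 2 higher and 3 lower in both libraries, undifferentiated spermatogonia factors (10 of 13) 4 and 4, and differentiation genes other than Stra8 and Kit (8 of 11) 2 and 5. Among the last, Dmrt1, a regulator that holds back meiosis, was 1.21-fold (1.10 to 1.33) and 1.17-fold (1.07 to 1.27) higher, and Ccnd2, cyclin D2, which is also a G1 gene, was at 440.5 and 460.9 CPM against 634.8 and 688.7 CPM.

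Immediate early genes, which respond within minutes to growth factors and to cell handling, were lower. Of 18 genes 13 were tested, 11 were lower and 2 (Klf4 and Btg2) higher in both vehicle libraries, with a median log2 ratio of -0.495 and -0.405. Ier3 was at 352.5 and 359.2 CPM against 524.0 and 538.7 CPM, Jund at 148.0 and 154.3 CPM against 181.5 and 178.6 CPM, Egr1 at 84.9 and 99.4 CPM against 134.3 and 142.9 CPM, and Ier2 at 64.5 and 65.7 CPM against 93.0 and 96.5 CPM. Their summed level went from 1364.6 and 1368.8 CPM in cells without UMIs of the 6 genes to 780.6 and 820.7 CPM in those with 9 or more. Fibroblasts were at 2515.6 and 2553.0 CPM, and the fibroblast markers given above were lower in the same cells. Of 13 mitochondrially encoded genes 11 were lower in both libraries, by little, with mt-Co1 at 0.892-fold (0.875 to 0.908) and 0.864-fold (0.848 to 0.880).

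The 10 G2/M spermatogonia of EV 1 held 21129 UMIs, so that 1 UMI was 47.3 CPM. When it was included in the comparison of the classes, 954 genes had 50 UMIs in every library. Cenpf, Prc1 and Cks2 (3 genes, 0.314%) were at least 2-fold higher in all 3 libraries and none (0%) was lower. The median log2 ratio of the 113 mitotic genes with 50 UMIs over the libraries was 0.72, 0.66 and 1.15, and when each gene's ratio was first averaged over the libraries it was 0.83. The EV 1 value of the mitotic genes was 0.55 and 0.59 with other library scalings (TMM and DESeq2 size factors) and 1.66 with 2 UMIs added in place of 0.5. The median log2 ratio of 10 stem cell genes was -0.15, -0.19 and 1.31, and 0.21 when averaged per gene first. The EV values of the stem cell genes rest on 9 UMIs, and most of these genes had none, where the 0.5 UMI added to each sum sets the value.

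Set against the pooled vehicle libraries, G2/M spermatogonia of EV 1 had 1.05 times the summed level of mitotic genes (0.959 to 1.16, from 446 UMIs), while other germ cells of EV 1 had 0.847 times (0.816 to 0.880). Per gene, 110 mitotic genes had a median of 0.19 for EV 1 over the vehicle mean on the log2 scale, beside 0.18 over all genes with at least 100 UMIs in these cells. The 6 rule genes together were at 0.948 times (0.671 to 1.30, 38 UMIs). Stem cell genes were at 0.587 times (0.268 to 1.12, 9 UMIs), against 0.440 times (0.355 to 0.540) in other germ cells, and their median log2 ratio over 7 genes was -0.44. DNA replication genes were at 1.15 times (0.906 to 1.44, 77 UMIs), against 0.731 times (0.680 to 0.784). In G2/M spermatogonia the intervals of mitotic, stem cell and replication genes all held 1, so that a difference from vehicle was not detectable at this depth.

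The metallothioneins Mt1 and Mt2 were higher in EV 1, and with them the list of metallothionein and stress genes. The list summed to 884.6, 782.7 and 3265.7 CPM, which is 3.93 times vehicle (3.05 to 4.99, 69 UMIs), and were 3.73 times vehicle (3.50 to 3.97) in other germ cells. Mt1, a metal-binding protein, was at 524.1 and 471.4 CPM in the vehicle libraries and at 2224.4 CPM in EV 1, and Mt2 at 191.6, 158.5 and 851.9 CPM. They held 47 and 18 of the 69 EV UMIs, so that the ratio of the list rests on these genes and says nothing of its stress genes. The list was also higher in the fibroblasts of EV 1, and the part of the EVs and of the library cannot be told apart with 1 library. Other lists whose intervals in G2/M spermatogonia did not hold 1 were nuclear long noncoding RNAs at 1.23 times vehicle (1.13 to 1.35), mitochondrially encoded genes at 0.874 times (0.806 to 0.945) and macrophage and endothelial markers at 7.63 times (1.54 to 23), the last from the 3 UMIs given above. In other germ cells of EV 1 the long noncoding RNAs were at 1.84 times (1.80 to 1.88). The mitochondrially encoded genes were at 0.911 times (0.892 to 0.930) there, so that neither shift was particular to G2/M spermatogonia.

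Single genes could not be read in these 10 cells. Of 7052 genes with at least 100 UMIs in G2/M spermatogonia, 6226 (88.3%) had an EV value beyond both vehicle values by a margin wider than the vehicle values' own gap, and 2053 had no UMI in EV 1. Ranked by EV 1 over the vehicle mean, the highest of them were Arhgap31, Kcnq5, Mfap1b, Sdccag8 and Tmem251, at 189.3 CPM from 4 UMIs each, and the lowest Uqcrb, Atp5h, Ppp1r14b, Wwox and Cnih4, with no UMI, where up to 142.0 CPM would be allowed. Uqcrb, of respiratory complex III, was at 310.7 and 291.6 CPM in the vehicle libraries and at 277.0 CPM in the other germ cells of EV 1.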

How the data were processed

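Single-cell RNA of primary spermatogonial cultures was profiled with 10x Genomics droplets. The authors deposited unnormalized UMI counts for 32285 genes in each cell barcode, made with Cell Ranger 7.0.1 on mm10 with the GENCODE vM23 annotation, with barcodes already called as cells. Groups came from the sample titles. The cells, gene lists and comparisons were chosen with earlier results of these data known.

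Counts were summed per library and class and given as CPM. Log2 ratios had 0.5 UMI added to each sum. Wilson, exact Poisson and exact conditional intervals were used, at 95%. Doublet scores came from Scrublet (scanpy 1.11.5), the highest 0.8% per 1000 cells being marked, and kept in the main values. Scripts ran in Python 3.11.15 and R 4.3.3, and were tested on simulated data. Alternatives included thinning to 1000 UMIs, edgeR 4.0.16 TMM factors and DESeq2 1.42.0 size factors. No test across samples was made.

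Genes named are the rule genes, up to 4 per list by UMIs, the 10 highest and 10 lowest by the smaller and larger vehicle ratio, and the 5 highest and 5 lowest of EV 1 over vehicle. The other genes past 2-fold, Lhx1, Foxm1, Pcna, Cenph, Cenpn, Cenpw, Lin52, Lin54, Klf4, Btg2, marker genes without UMIs and the genes named within the class were chosen after their values were seen. The values of 1 gene are not reported here.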

Additional observations from a re-analysis of the deposited data

Results flagged for a closer look

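In the lists of mitotic and DNA replication genes the EV library lay on one side of both vehicle libraries in G2/M spermatogonia and on the other side in other germ cells, and this difference between the classes was not tested. Mitotic genes outside the rule summed to 19716.4 and 20262.3 CPM in the vehicle libraries and to 21108.4 CPM in EV 1 for G2/M spermatogonia, and for other germ cells to 12641.0, 12424.5 and 10614.8 CPM. DNA replication genes summed to 3178.0, 3167.4 and 3644.3 CPM in G2/M spermatogonia, and to 4025.5, 4153.7 and 2990.5 CPM in other germ cells. The EV values of G2/M spermatogonia come from 10 cells, with 446 and 77 UMIs, and their counting intervals against vehicle hold 1. Other lists lay the same way, among them G2/M transcription regulators and held-out germ markers, and lists that overlap with these 2 (spindle, cytokinesis, chromosome structure and Seurat S genes), while G1 and Sertoli genes lay the opposite way, lower than vehicle in G2/M spermatogonia and higher in other germ cells. Other parts of the mitotic list did not show this crossing: in G2/M spermatogonia, kinases and cyclins were lower in EV 1 than in both vehicle libraries and kinetochore genes lay between them. The separate list of anaphase-promoting complex genes was lower as well.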

How the results depend on the processing

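No paired analysis was possible because no result comes from a test and the EV arm had 1 library with counts. The vehicle libraries were given as 2 biological replicates by the labels. The lower share in EV 1 (-20.7 points) kept its direction throughout: -24.2 with at least 2 UMIs of the 6 genes, -11.3 with at least 5, -20.1 without doublets, -6.72 thinned to 1000 UMIs, -29.0 with cells of at least 2000 UMIs, and -23.4 with Stra8 or Kit cells. Without one vehicle library it was -20.8 to -20.6. The median log2 ratio of mitotic genes between the classes (0.83) was between 0.64 and 1.05 apart from 1.11 thinned, and 0.94 to 0.98 without one vehicle library.

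The count of genes at least 2-fold higher in every library (3) was 0 thinned, 0 with cells of at least 2000 UMIs, 6 with Stra8 or Kit cells, 14 with a minimum of 10 UMIs per gene, 0 with 200 and 3 to 5 without one vehicle library. With vehicle libraries only, an alternative chosen after seeing the data, it was 35, and the count lower (0) was 4. In the vehicle libraries alone, other germ cells without any UMI of the 6 genes as the reference gave 62 genes higher, 33 of them among the 35, cells of at least 2000 UMIs gave 22, and the genes lower were 19 with at least 5 UMIs, 9 with Stra8 or Kit cells and 33 thinned.

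The results that rest on the 10 EV cells were the least stable. The stem cell median between the classes (0.21) was -0.06 against other germ cells without UMIs of the 6 genes and -0.17 in the vehicle libraries only, and 0.42 to 0.45 without one vehicle library. The stem cell median of EV 1 over vehicle (-0.44) was -0.85 with at least 2 UMIs, 0.51 with at least 5, 0.70 thinned, 0.14 with cells of at least 2000 UMIs, -1.24 under TMM, -0.99 under DESeq2 size factors, 1.09 with 2 UMIs added, -0.14 as a mean over cells, and -0.51 to -0.37 without one vehicle library. The mitotic median of EV 1 over vehicle (0.19) was 0.06, 0.26, 0.14, 1.23 and 0.49 with at least 2 UMIs, at least 5, without doublets, thinned and with cells of at least 2000 UMIs, -0.60 under TMM, -0.36 under DESeq2 size factors, 0.99 with 2 UMIs added, and 0.15 to 0.21 without one vehicle library. TMM and DESeq2 size factors put the median of all genes of EV 1 over vehicle at -0.62 and -0.38, against 0.18 in CPM. The cause of the other shifts was not tested. In the vehicle libraries the same factors moved the median of all genes by under 0.1 on the log2 scale.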

Other observations

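The G1 list held 1 gene that was higher. Cdkn1c (p57), which holds cells in G1, was at 253.4 and 261.8 CPM in vehicle G2/M spermatogonia, where other germ cells had 181.7 and 189.2 CPM, or 1.39-fold (1.25 to 1.55) and 1.38-fold (1.25 to 1.53). Of 15 tested genes of the G1 list it was the only one higher in both libraries, while 6 were lower, among them Cdk4 at 0.827-fold (0.723 to 0.944) and 0.823-fold (0.728 to 0.929). Taf4b, a germ cell transcription factor subunit, was 1.18-fold (1.01 to 1.36) and 1.33-fold (1.16 to 1.52) higher.

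The share of genes higher in both vehicle libraries, 28.1% over all tested genes, was also read by gene span, with no test. Among 1648 tested genes that span over 100 kb, 35.7% were higher in both, against 25.1% of 1045 genes under 5 kb, and the median log2 ratios were near 0 in both groups, at 0.0079 and 0.026 against -0.047 and -0.056. Genes on the list of nuclear long noncoding RNAs differed among themselves. Malat1 was 1.07-fold (1.05 to 1.08) and 1.14-fold (1.13 to 1.16) higher and Gm42418 was 0.749-fold (0.715 to 0.785) and 0.722-fold (0.691 to 0.753). Whether the UMIs of Gm42418 come from a nuclear RNA was not tested.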
